A study of Mus musculus with 22 samples.

Results

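The genes of the bone morphogenetic protein (BMP) and transforming growth factor beta (TGF-beta) pathways were examined for chromatin peaks in mouse intestinal crypts and embryonic stem cells. A list of 37 genes was taken as given, and all 37 were found among the 21887 protein-coding genes of the mm10 gene table. They comprised 14 ligands (Bmp2, Bmp3, Bmp4, Bmp5, Bmp6, Bmp7, Bmp8b, Gdf7, Nodal, Inhba, Inhbb, Tgfb1, Tgfb2 and Tgfb3), 4 secreted antagonists (Nog, Chrd, Grem1 and Fst), 7 receptors (Bmpr1a, Bmpr1b, Bmpr2, Acvr1, Acvr2a, Tgfbr1 and Tgfbr2), 8 Smad genes (Smad1 to Smad7 and Smad9) and 4 Id genes (Id1 to Id4). In this pathway, secreted ligands bring type I and type II receptor kinases together, the receptors phosphorylate receptor-regulated Smads, and these enter the nucleus with the common partner SMAD4. Antagonists such as noggin bind ligands outside the cell, SMAD6 and SMAD7 dampen the signal inside it, and the Id genes are classic targets of BMP signalling. In the small intestine, BMP signalling is known to be low at the crypt base, where antagonists from the surrounding mesenchyme shield the stem cells, and to increase towards the villus.

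The study profiled 5 chromatin features by chromatin immunoprecipitation and sequencing (ChIP-seq). It used small-intestinal crypts from wild-type animals (WT) or after induced Cre-driven loss of Pcgf6 (KO), and WT embryonic stem cells (ESC) of the E14 line. PCGF6 is the RING finger subunit that defines a variant Polycomb repressive complex 1 (PRC1), and RING1B is the ubiquitin ligase of PRC1. H2AK119ub1 is the histone mark that PRC1 writes, CTCF is an insulator protein that binds DNA, and RAD21 is a subunit of cohesin. The mice were C57BL/6, and Cre was AhCre, which β-naphthoflavone induces, or Villin-Cre, whose promoter drives expression in the intestinal epithelium and which was induced with tamoxifen. The series text gives male mice of 8 to 12 weeks and collection 7 days after induction for RNA work. It does not state whether this holds for the ChIP crypts. The labels do not say whether WT mice carried Cre, nor how many mice gave each library. PCGF6 was profiled in WT and KO crypts of the AhCre line and in ESC, RING1B in both genotypes of both lines and in ESC, H2AK119ub1 in both genotypes of both lines, and CTCF and RAD21 in both genotypes of the Villin line. The H2AK119ub1 chromatin of all 4 groups carried 5% Drosophila S2 chromatin as a spike. The series held 22 samples, 16 with a peak list and 6 inputs.

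Each group had 1 library, so no value below has a replicate error and no test between conditions was possible. The lists held 1662 to 32651 peaks on chromosomes 1 to 19, X and Y. They carry no read counts, so the depth behind them is unknown. The score of a peak is the authors' −log10 p or q value, at least 10 in every list, and it is not scaled between libraries. A gene was taken to have a peak when a peak came within 1 kb of either annotated end, and its score is that of the best such peak. A peak present in WT is called lost when KO had no peak in the gene's windows and none overlapping the WT peak, and gained is the reverse. Peak lists do not measure expression, so marker genes describe the labels only. The pluripotency genes Pou5f1, Nanog, Sox2 and Zfp42 had RING1B in 0 of 4 cases in ESC, and Sox2 alone of them had it in each WT crypt list. Of 6 epithelial genes (Vil1, Cdx1, Cdx2, Hnf4a, Epcam and Cdh1), 3 had RING1B in ESC, 0 in AhCre WT crypts and 1 (Cdx2) in Villin WT crypts. Of 5 mesenchymal or immune genes, Pdgfra and Vim had RING1B in all 3 lists. Neighbours shared a peak in the windows with 4 of the pathway genes: Ldah with Gdf7, B9d2 with Tgfb1, Thpo with Chrd and Upp2 with Acvr1.

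Promoter sequences are shown for 6 genes because the results below turn on them. Id2, Smad3 and Bmpr2 had strong PCGF6 peaks in WT crypts, Acvr2a had 2 weak PCGF6 peaks on either side of its start, Bmp6 had RING1B and H2AK119ub1 in crypts and PCGF6 in ESC alone, and Bmp4 had RING1B and H2AK119ub1 with no PCGF6 in crypts or ESC. Each is the 250 bases before the gene start, 5′ to 3′ on the gene's strand, from the RefSeq table of the GRCm38.p6 (mm10) build, in which 27 of the 37 genes had an entry. They lie at chr12:25096093-25096342 (Id2, minus strand), chr9:63757995-63758244 (Smad3, minus strand), chr1:59764029-59764278 (Bmpr2, plus strand), chr2:48813859-48814108 (Acvr2a, plus strand), chr13:38345466-38345715 (Bmp6, plus strand) and chr14:46390670-46390919 (Bmp4, minus strand). Capitals mark an E-box (CACGTG, the motif of MAX and MGA, partners of PCGF6), an E2F motif (TTCCCGC, for E2F6) or a T-box motif (AGGTGTG, for the T-box domain of MGA), searched on both strands.
Id2: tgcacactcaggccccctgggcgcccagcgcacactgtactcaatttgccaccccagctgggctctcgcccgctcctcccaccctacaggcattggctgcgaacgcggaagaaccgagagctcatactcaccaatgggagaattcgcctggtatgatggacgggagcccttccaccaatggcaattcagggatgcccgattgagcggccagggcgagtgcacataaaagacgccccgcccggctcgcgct
Smad3: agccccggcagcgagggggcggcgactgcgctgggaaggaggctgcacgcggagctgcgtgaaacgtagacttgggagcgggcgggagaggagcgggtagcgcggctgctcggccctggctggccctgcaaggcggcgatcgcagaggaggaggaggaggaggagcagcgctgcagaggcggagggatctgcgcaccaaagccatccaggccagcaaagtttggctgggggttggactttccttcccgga
Bmpr2: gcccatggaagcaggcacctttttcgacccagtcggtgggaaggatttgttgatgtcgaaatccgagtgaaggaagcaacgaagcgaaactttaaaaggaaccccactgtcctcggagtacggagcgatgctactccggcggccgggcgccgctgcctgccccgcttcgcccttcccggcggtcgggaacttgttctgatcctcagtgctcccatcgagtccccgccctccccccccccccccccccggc
Acvr2a: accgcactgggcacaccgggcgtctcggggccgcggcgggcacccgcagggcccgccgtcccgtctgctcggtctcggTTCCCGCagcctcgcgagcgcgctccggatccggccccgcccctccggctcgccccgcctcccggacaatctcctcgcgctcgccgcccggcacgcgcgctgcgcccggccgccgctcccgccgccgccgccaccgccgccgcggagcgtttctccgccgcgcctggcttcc
Bmp6: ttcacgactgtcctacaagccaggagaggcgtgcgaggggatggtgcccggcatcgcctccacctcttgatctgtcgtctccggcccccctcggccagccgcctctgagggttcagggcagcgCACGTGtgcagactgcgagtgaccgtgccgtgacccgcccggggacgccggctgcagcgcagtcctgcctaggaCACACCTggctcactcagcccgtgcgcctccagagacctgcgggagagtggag
Bmp4: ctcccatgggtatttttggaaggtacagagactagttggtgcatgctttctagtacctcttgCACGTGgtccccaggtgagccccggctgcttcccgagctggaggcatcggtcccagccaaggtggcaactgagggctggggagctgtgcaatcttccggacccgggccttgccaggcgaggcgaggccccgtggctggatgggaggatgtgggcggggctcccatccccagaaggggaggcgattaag

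The E-box of Bmp6 began 127 bases before the start and its T-box motif, on the opposite strand, 53 bases before it. ESC peaks of PCGF6 and RING1B, H2AK119ub1 peaks of all 4 crypt groups and RING1B peaks of AhCre KO, Villin WT and Villin KO crypts overlapped the stretch. The E-box of Bmp4 began 188 bases before the start. Peaks of ESC RING1B and of H2AK119ub1 in AhCre WT, AhCre KO and Villin WT crypts overlapped that stretch. The E2F motif of Acvr2a began 172 bases before its start, in a stretch that no peak of any list overlapped. Id2, Smad3 and Bmpr2 held none of the 3 motifs in these bases, which says nothing of sites elsewhere. Of 32851 promoters of this length, 6.02% held the E-box, 3.82% the E2F motif and 5.1% the T-box motif. Among the 8330 that overlapped a PCGF6 peak of WT crypts these shares were 11.3%, 8.38% and 4.35%. The 32 entries of the pathway genes held them in 3, 1 and 2 cases. These entries had a median GC content of 65.6%, against 52.4% over all promoters and 61.2% over promoters with a PCGF6 peak.

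The 37 genes split by role (map of scores by gene and list). Of these listed genes, the ligands carried mainly H2AK119ub1, whereas the Smad genes carried PCGF6 and mostly neither H2AK119ub1 nor RING1B. The other ligand genes of the pathway, given below, had H2AK119ub1 less often. In AhCre WT crypts 10 of 14 ligands had H2AK119ub1 and 4 had PCGF6, while 2 of 8 Smad genes had H2AK119ub1 and 7 had PCGF6. All 37 together had PCGF6 in 18 cases in AhCre WT crypts (48.6%, against 39.9% of all genes), in 5 cases in KO crypts (13.5%, against 13.7%) and in 18 cases in ESC (48.6%, against 22.7%). RING1B peaks were found at 10 genes in AhCre WT crypts (27.0%, against 7.74%), at 9 in AhCre KO crypts (against 4.89%), at 16 in Villin WT crypts (43.2%, against 14.2%) and at 10 in Villin KO crypts (against 7.61%). In ESC it lay at 25 genes (67.6%, against 17.8%). H2AK119ub1 lay at 17 (AhCre WT, against 16% of all genes), 19 (AhCre KO, 17.7%), 16 (Villin WT, 10.4%) and 14 genes (Villin KO, 8.85%). The shares of pathway genes were 45.9%, 51.4%, 43.2% and 37.8%. The PCGF6 shares in crypts were near the background, and the RING1B and H2AK119ub1 shares were above it in every list. Taking the 3 Polycomb features of AhCre WT crypts together, 11 of the 37 genes had PCGF6 without RING1B or H2AK119ub1 (29.7%, against 31.2%) and 6 of these were Smad genes. Another 11 had RING1B or H2AK119ub1 without PCGF6 (29.7%, against 9.64%), 7 of them ligands. PCGF6 lay with RING1B or H2AK119ub1 at 7 genes (18.9%, against 8.78%), and 8 had none of the 3 (21.6%, against 50.4%). RING1B or H2AK119ub1 was present in any of the 8 crypt lists of these features at 23 genes (62.2%, against 27.7%). The WT lists of both Cre lines had RING1B at 8 genes (21.6%, against 6.63%) and H2AK119ub1 at 15 (40.5%, against 9.39%). At least 1 WT list had RING1B at 18 genes (48.6%, against 15.3%) and H2AK119ub1 at 18 (against 17%). The list was chosen with earlier results of these data known, so its shares are a description.

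**Figure D1:**
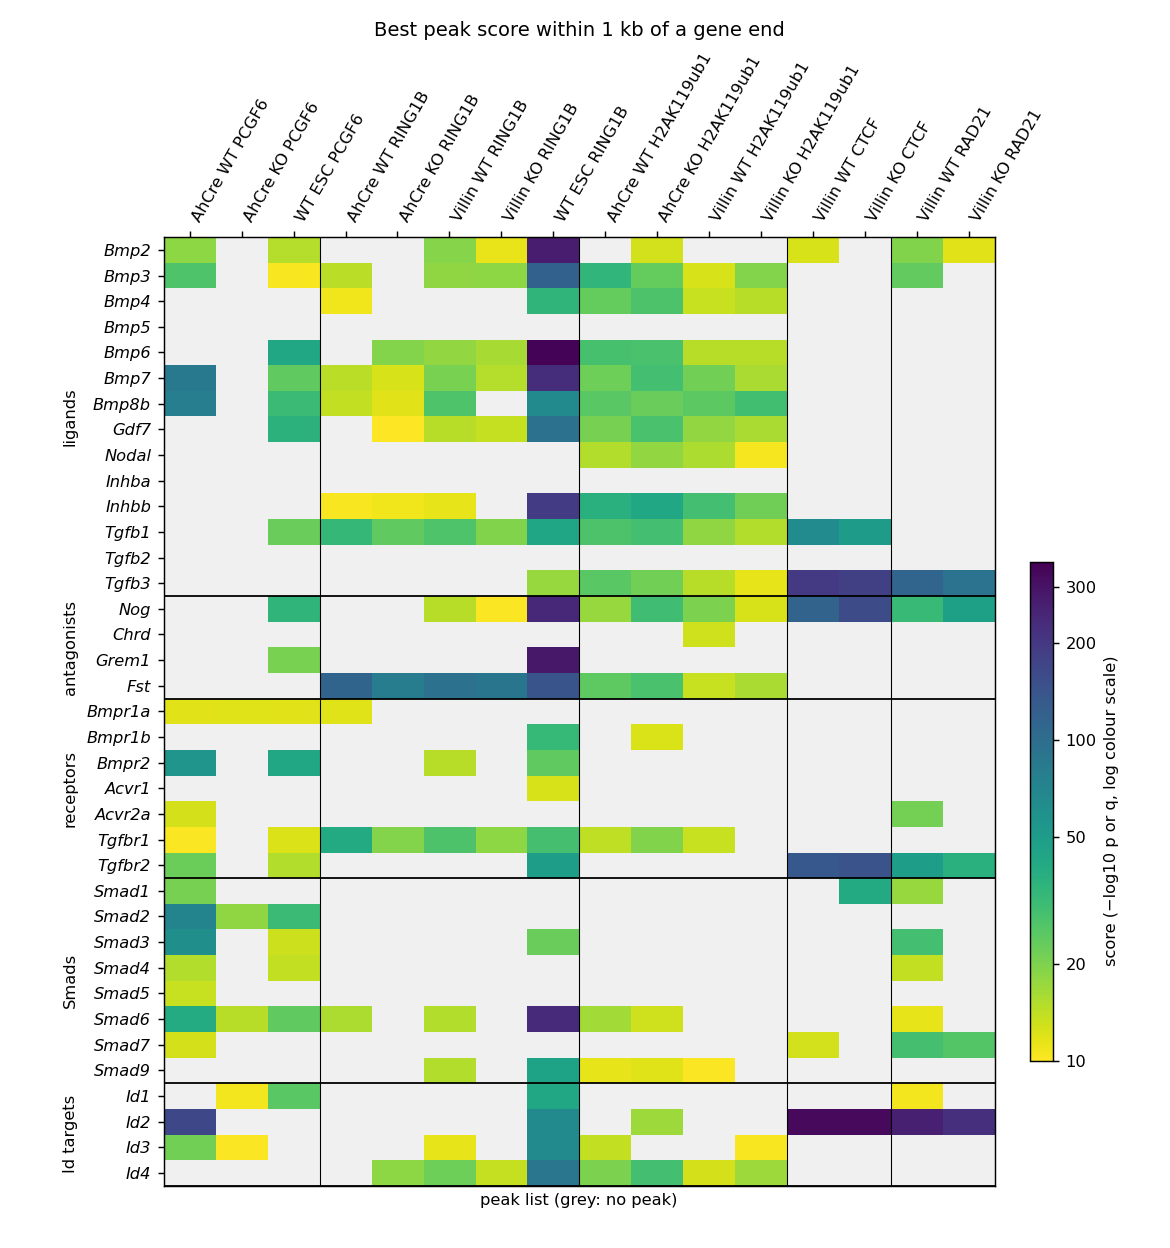
Best peak score within 1 kb of a gene end (colour, log scale, −log10 p or q) for the 37 genes (rows, by role) in the 16 peak lists (columns), with grey for no peak. H2AK119ub1 fills 10 of 14 ligand rows in all 4 of its lists, and PCGF6 of AhCre WT crypts fills 7 of 8 Smad rows.

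**Figure D2:**
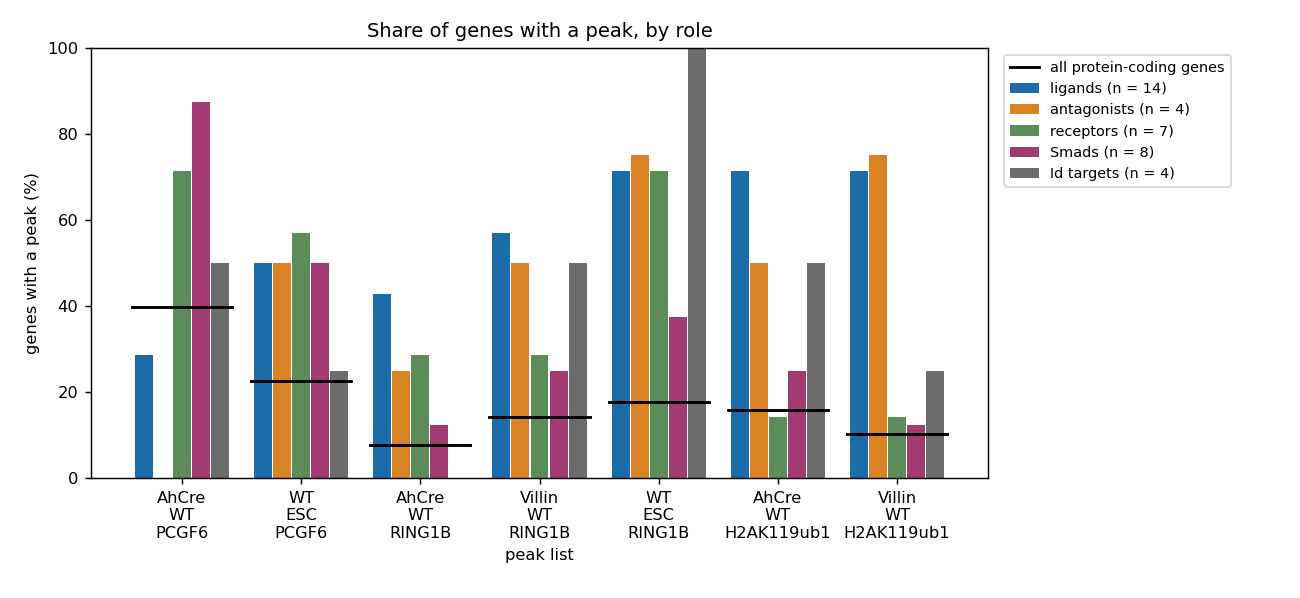
Share of genes with a peak (%) in 7 WT lists, by role (bars, number of genes in the legend), with black lines for all protein-coding genes. The PCGF6 share in AhCre WT crypts runs from 0% of antagonists to 87.5% of Smad genes, and the H2AK119ub1 share is 71.4% of ligands in both Cre lines.

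Among the ligands, H2AK119ub1 was the most constant feature. Bmp3, Bmp4, Bmp6, Bmp7, Bmp8b, Gdf7, Nodal, Inhbb, Tgfb1 and Tgfb3 had the mark in WT and KO crypts of both Cre lines, 10 of 14 ligands against 6.85% of all genes. Nog, Fst and Id4 shared this pattern, which made 13 of the 37. Inhbb, which encodes an inhibin and activin beta subunit, had the highest score of these in AhCre crypts, with 36.9 in WT and 42.5 in KO. Its Villin scores were 29.0 and 21.8. Bmp8b, a BMP ligand gene, had AhCre scores of 25.2 and 22.8 and Villin scores of 24.8 and 29.8. Scores of Nodal, the left-right patterning ligand, were 15.2 (WT) and 18.0 (KO) for the AhCre line and 15.4 and 10.5 for the Villin line, with no RING1B or PCGF6 peak in any list. Tgfb3 had 25.2, 21.5, 14.6 and 11.4 in the same order, and likewise no crypt RING1B. Median ligand scores were 25.2 in AhCre WT crypts, where all marked genes had a median of 17.9, and 16.7 in Villin WT crypts, against 14.6.

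RING1B was found at 6 ligands in each genotype of AhCre crypts (42.9%, against 7.74% of all genes in WT and 4.89% in KO). In Villin crypts it was found at 8 in WT (57.1%, against 14.2%) and 6 in KO (42.9%, against 7.61%). Tgfb1, the founding TGF-beta ligand, and Bmp7 were the ligands with RING1B in all 4 crypt lists, and Fst and Tgfbr1 were the others (4 of 37, 10.8%, against 3.56%). At Tgfb1 the scores were 33.0 (AhCre WT), 24.0 (AhCre KO), 26.8 (Villin WT) and 19.7 (Villin KO), each from a peak of 2386 to 2725 bp over or just inside the gene start (chr7, 25687002). At Bmp7 they were 14.5, 12.4, 20.7 and 14.8. KO scores were below WT scores at both genes in both lines. Bmp3 and Bmp4 had RING1B in AhCre WT crypts (14.5 and 10.8) and lost it in KO, yet Bmp3 had near-equal scores in Villin crypts (18.2 and 18.5). The Bmp4 peaks of Villin WT crypts lay more than 1 kb from the start, at 1081 and 2643 bp, and the nearest RING1B peak of Villin KO crypts was 491530 bp away. Bmp8b and Inhbb showed the opposite order, with RING1B in WT and KO of the AhCre line but, in the Villin line, in WT alone (26.9 and 11.4). Bmp6 (19.4) and Gdf7 (10.1) had RING1B in AhCre KO crypts but not in WT, while in Villin crypts they had it in both genotypes (17.80 and 16.01 at Bmp6, 14.7 and 13.6 at Gdf7). Within 1 kb no ligand lost or gained RING1B in both lines, whereas with windows of 5 kb Bmp4 lost it in both.

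PCGF6 lay at 4 ligands in AhCre WT crypts, and all 4 lost it in KO (64.4% of all genes with a peak did). With lists of equal length, Bmp7 and Bmp8b lost it. The scores were 84.7 at Bmp7, which ranked 798 among 17163 peaks, 77.7 at Bmp8b, 26.9 at Bmp3 and 18.3 at Bmp2. The median over these 4 was 52.3, against 21.4 over all genes with a peak. The Bmp7 peak covered the upper end of the gene (chr2, 172938679 to 172940704) and overlapped the RING1B peak there. In AhCre KO crypts Bmp7 had no PCGF6 peak there but had RING1B (12.4) and H2AK119ub1 (29.0). Bmp2 had RING1B in Villin crypts alone (19.0 in WT and 11.2 in KO) and gained a weak H2AK119ub1 peak in AhCre KO crypts (12.8).

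Bmp5, Inhba and Tgfb2 had no peak within the windows in any list. At Bmp5 the nearest RING1B peak of the 5 RING1B lists was 148715 bp away. Inhba and Tgfb2 had peaks near a start inside the annotated gene. Of the 27 genes in the promoter table, 4 (Inhba, Tgfb2, Chrd and Bmpr1b) had every start there over 1 kb from the outer gene start that set the windows. The promoter-table start lay 7595 bp inside Inhba and 3708 bp inside Tgfb2. RING1B in Villin WT crypts (14.7) and both factors in ESC lay within 237 bp of that start of Inhba, and a further ESC RING1B peak lay 12897 bp inside the gene. At Tgfb2, RING1B lay inside the gene in all 5 RING1B lists, with scores of 25.1 (AhCre WT), 12.4 (AhCre KO), 21.9 (Villin WT), 17.2 (Villin KO) and 50.3 (ESC), at most 1365 bp from the promoter-table start. H2AK119ub1 covered that start of Tgfb2 in AhCre WT, AhCre KO and Villin WT crypts and lay 1360 bp from it in Villin KO crypts. With a peak anywhere in the gene counted, 11 of 14 ligands had H2AK119ub1 in AhCre WT crypts, Tgfb2 being the one added (against 20.6% of all genes under that rule).

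The 4 antagonist genes differed from each other. Fst, which encodes the activin-binding protein follistatin, had the strongest RING1B of all 37 genes in crypts: 113 in AhCre WT, 78.3 in AhCre KO, 93.3 in Villin WT and 89.5 in Villin KO crypts. Its best peak ranked 146 of 2368 in AhCre WT crypts and 175 of 4403 in Villin WT crypts. The RING1B region spanned 5442 bp in Villin WT crypts (chr13, 114455748 to 114461189). H2AK119ub1 at Fst scored 24.2 (AhCre WT), 28.0 (AhCre KO), 13.6 (Villin WT) and 15.8 (Villin KO), and no list had PCGF6 there. Nog, which encodes noggin, had H2AK119ub1 in all 4 crypt lists (17.4, 30.0, 20.3 and 12.4) and weak RING1B in Villin crypts (14.7 and 10.3). Chrd, for the BMP antagonist chordin, had RING1B and H2AK119ub1 at its promoter-table start, which lay 1702 bp inside the annotated gene. The Villin WT H2AK119ub1 peak (12.9) alone reached the window. The best H2AK119ub1 peaks there scored 38.1 in AhCre WT, 44.7 in AhCre KO and 24.4 in Villin KO, and RING1B scored 20.1 in AhCre WT, 21.9 in Villin WT and 11.1 in Villin KO. In AhCre KO the nearest RING1B peak was 111898 bp from that start. Grem1, for gremlin, had neither mark in crypts, and the nearest crypt RING1B peak was 1823049 bp away, whereas ESC had RING1B (285) and PCGF6 (20.6) at its start.

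Receptor genes carried PCGF6 in AhCre WT crypts in 5 of 7 cases (71.4%, against 39.9% of all genes). Bmpr2, the type II BMP receptor, had the highest score (55.8), from a peak of 1659 bp ending 135 bp before the start (chr1, 59762486 to 59764144). Tgfbr2, the type II TGF-beta receptor, had 22.4, Acvr2a 12.6, the type I BMP receptor gene Bmpr1a 11.8 and the type I TGF-beta receptor gene Tgfbr1 10.1. All but Bmpr1a, which had 11.9 in KO, lost the peak (4 of 5, against 64.4% of all genes with a peak). Tgfbr1 was the receptor gene with RING1B in all 4 crypt lists (40.5 in AhCre WT, 19.4 in AhCre KO, 27.1 in Villin WT and 18.5 in Villin KO), and its H2AK119ub1 scored 14.1 (AhCre WT), 19.6 (AhCre KO) and 13.6 (Villin WT). That mark was lost in Villin KO crypts. RING1B was lost at Bmpr1a in AhCre crypts (11.9) and at Bmpr2 in Villin crypts (14.7). Bmpr1b gained H2AK119ub1 in AhCre KO crypts (12.2), and Acvr1 had no peak in crypts within the windows.

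Smad genes had the highest PCGF6 share of the 5 roles in AhCre WT crypts, 7 of 8 (87.5%, against 39.9% of all genes). The scores were 71.2 at Smad2 and 60.5 at Smad3, which encode the TGF-beta and activin effectors, 39.7 at the inhibitory Smad6, 20.8 at Smad1 and 13.4 at Smad5, which encode BMP effectors, 15.2 at the common partner gene Smad4 and 12.6 at the inhibitory Smad7. Smad9 had none. At 6 of these 7 genes, all but Smad6, no RING1B or H2AK119ub1 peak was found in any of the 8 crypt lists of those features. The same held at 5446 of the 8740 genes with AhCre WT PCGF6 in the whole gene table. As a share of every gene, the combination was seen at 75.0% of the 8 Smad genes, against 24.9% of all genes. In KO, Smad1, Smad4, Smad5 and Smad7 lost PCGF6 (57.1%, against 64.4% of all genes with a peak), and Smad2 (18.1) and Smad6 (14.8) had it. At Smad3 the WT peak was 5243 bp wide, and it overlapped a KO peak of 1718 bp (score 18.6) that lay 2574 bp before the start, outside the window. Smad6 had RING1B in both WT lists (15.6 and 15.2). It was lost in Villin KO, whereas in AhCre KO a peak of 14.1 lay 1192 bp inside the gene. Smad9, a further BMP effector, had H2AK119ub1 in AhCre crypts (11.4 and 11.9) and lost RING1B (15.2) and H2AK119ub1 (10.2) in Villin KO crypts.

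The 4 Id genes, which encode inhibitors of basic helix-loop-helix factors, each had a different pattern. Id2 had the strongest PCGF6 peak of the 37 genes in WT crypts (166.5, rank 252 of 17163), 3869 bp wide and reaching from inside the gene to upstream of its start. In KO the peak overlapping it was 1450 bp wide, scored 71.7 and ranked 126 of 4779, and it lay 1387 bp before the start. RING1B peaks outside the window lay 2075 bp (AhCre WT, 18.2), 1751 bp (AhCre KO, 14.8), 1582 bp (Villin WT, 20.7) and 3755 bp (Villin KO, 11.6) before the start. AhCre KO crypts also had H2AK119ub1 at Id2 (17.0), and WT crypts had none. Id3 had PCGF6 in both genotypes (21.4 and 10.3), and Id1 had a weak KO peak alone (10.7), as did 0.152% of all genes without a WT peak. The nearest WT PCGF6 peak of Id1 was 2080 bp away, and with windows of 5 kb Id1 was not gained. Id4 had no PCGF6 but carried H2AK119ub1 in all 4 crypt lists (20.2, 29.0, 12.6 and 17.0) and RING1B in 3 within the window (18.5 in AhCre KO, 21.9 in Villin WT and 13.6 in Villin KO). In AhCre WT crypts its RING1B peak (14.5) began 1022 bp inside the gene, just past the window.

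**Figure D3:**
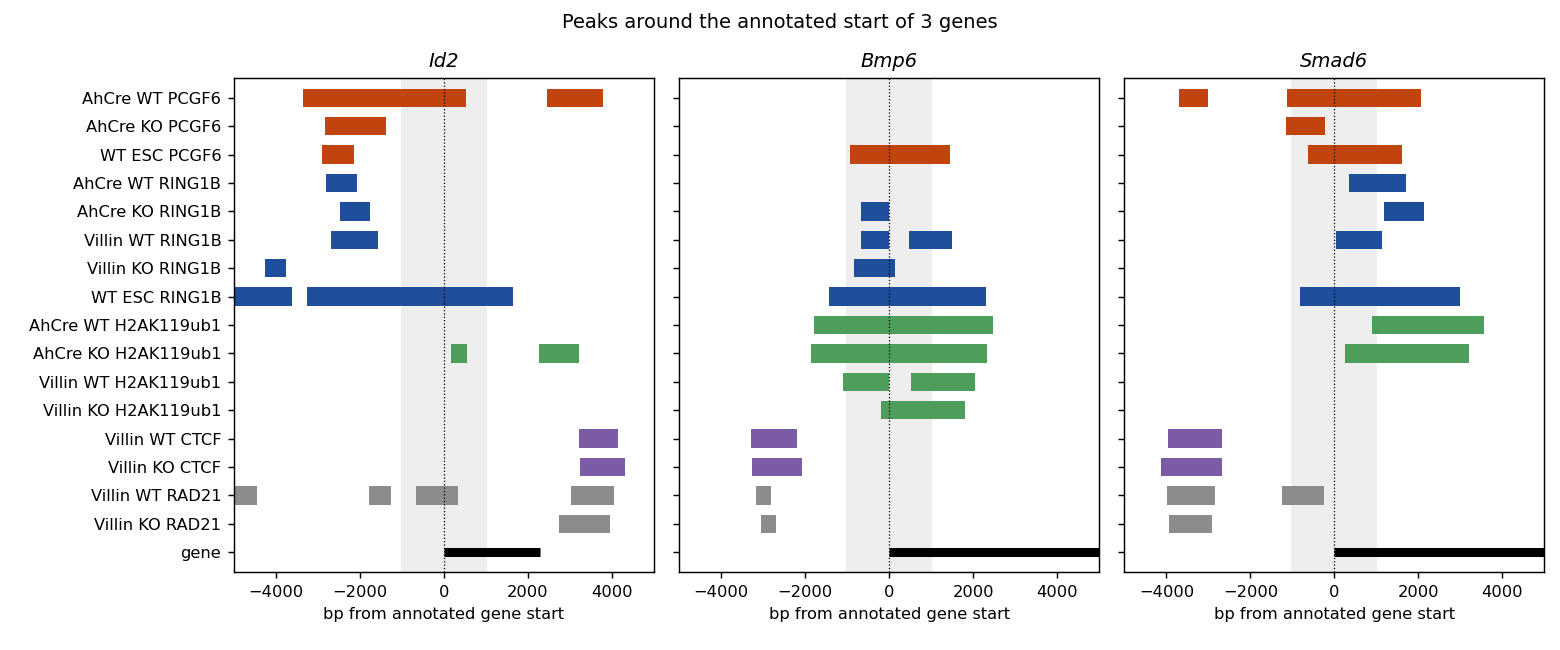
Peaks of the 16 lists (bars, one row per list) against distance in bp from the annotated start of Id2, Bmp6 and Smad6, with the gene as a black line and the 1 kb window in grey. The PCGF6 peak of Id2 spans 3869 bp in WT and 1450 bp in KO, where it lies 1387 bp before the start.

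The KO comparison set the peaks of KO crypts beside those of WT crypts. KO crypts still had PCGF6 peaks at 2990 of 21887 genes (13.7%), and whether these reflect remaining PCGF6 was not tested. PCGF6 was lost at 12 of the 18 genes that had it in AhCre WT crypts (66.7%, against 64.4% of all genes with a peak), gained at Id1, and at Id2 and Smad3 the KO peak lay past the window. With both lists shortened to their 4779 strongest peaks, Bmp7, Bmp8b and Bmpr2 lost PCGF6 (27.4% of all genes with a peak did) and Bmpr1a, Id1 and Id3 gained it (4.29% of the other genes did). RING1B was lost at 3 of 10 genes in AhCre crypts (Bmp3, Bmp4 and Bmpr1a, 30%, against 44.7%) and at 6 of 16 in Villin crypts (Bmp8b, Inhbb, Bmpr2, Smad6, Smad9 and Id3, 37.5%, against 53.7%). RING1B was gained at 2 (Bmp6 and Gdf7, against 0.782% of genes without a WT peak) and 0 (against 1.31%). With AhCre lists of equal length, Bmp3 alone lost RING1B (32.2% of all genes with a peak did), and Bmp6, Gdf7 and Inhbb gained it (3 genes, against 1.31%). Within the 1 kb windows and with all listed peaks counted, no gene of the 37 lost RING1B in both lines (1.24% of all genes did). None gained it in both (0.0503% did). With windows of 5 kb, Bmp4 and Bmpr2 lost it in both lines (2 of 37, against 1.56% of all genes). With 1 kb windows and a score of at least 20 required, Tgfbr1 lost it in both lines. Its KO peaks scored 19.4 (AhCre) and 18.5 (Villin), and the share of all genes was not computed for this setting. With 1 kb windows and all listed peaks, the lost RING1B peaks had WT scores of 10.8 to 14.5 (AhCre) and 11.4 to 26.9 (Villin).

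Most genes with H2AK119ub1 in WT crypts also had it in KO. In AhCre crypts 1 of the 17 genes with a WT peak lost it (Id3, against 12.8%). Of the others among the 37, 3 gained it (Bmp2, Bmpr1b and Id2, against 4.26% of all genes without a WT peak). In Villin crypts 2 of the 16 with a WT peak lost it (Tgfbr1 and Smad9, against 29.3%). Of the others, Id3 gained it (against 1.81% of all genes without a WT peak). None of the 37 lost the mark in both lines (0.169% of all genes did), and none gained it in both (0.21%). Scores at the 10 constantly marked ligands ran from 15.2 to 36.9 in AhCre WT and from 18.0 to 42.5 in AhCre KO. In the Villin line they ran from 12.5 to 29.0 in WT and from 10.5 to 29.8 in KO.

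**Figure D4:**
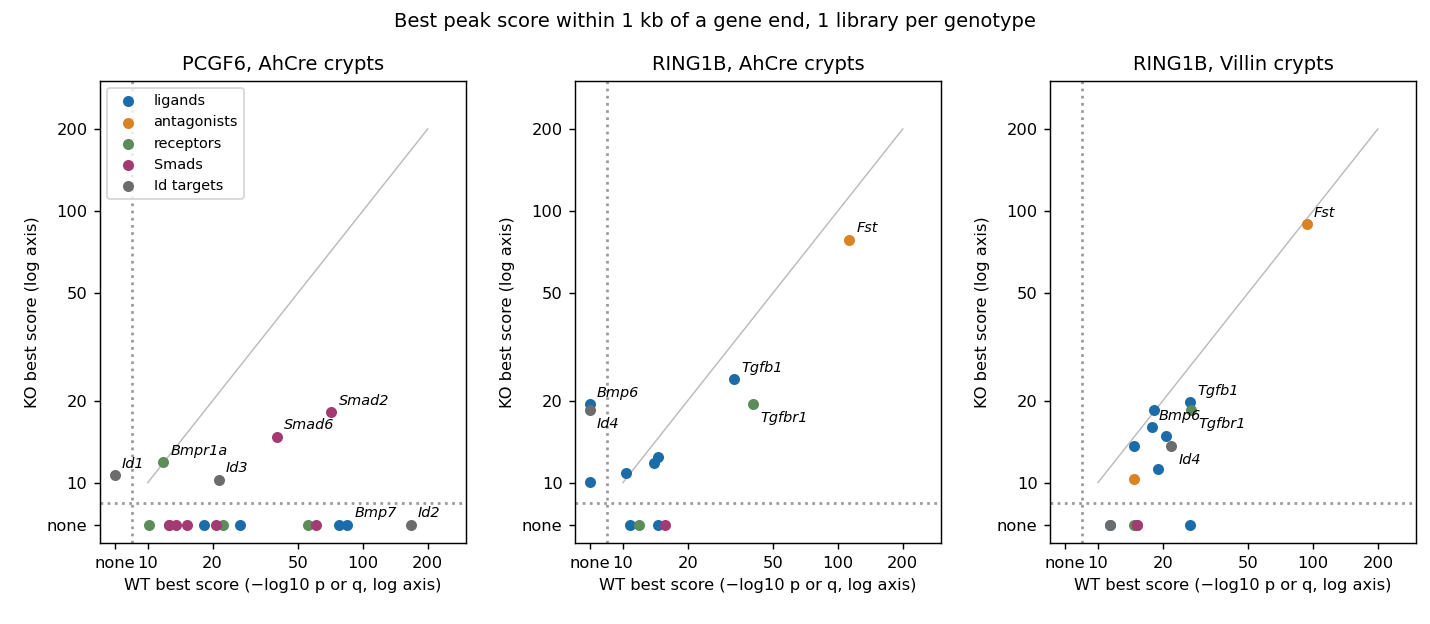
WT score (x axis) against KO score (y axis) of the best peak within 1 kb of a gene end (−log10 p or q, log axes) for PCGF6 in AhCre crypts and RING1B in both lines, 1 library per genotype, coloured by role, with "none" for no peak in the window and the grey line for equal scores. Id2 and Smad3, and Smad6 and Id4 for AhCre RING1B, are drawn at none on 1 axis although an overlapping peak lies past the window. PCGF6 at Bmp7 has a WT score of 84.7 and no KO peak, whereas RING1B at Fst lies near the line (113 and 78.3 in AhCre, 93.3 and 89.5 in Villin crypts).

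In ESC, RING1B was found at 25 of these genes, with scores that cannot be set against those of crypts. It was present at 10 of 14 ligands, 3 of 4 antagonists, 5 of 7 receptors, 3 of 8 Smad genes and all 4 Id genes. Its median score was 65.1 over the 25 genes, against 39.1 over all genes with ESC RING1B. The highest were Bmp6 (349), Grem1 (285), Bmp2 (275), Nog (238), Smad6 (232) and Bmp7 (226). Of the 25 genes, 17 also had RING1B in WT crypts of at least 1 line (68.0%, against 44.8% of all genes with ESC RING1B). The other 8 (21.6% of the 37, against 9.86%) were Tgfb3, Grem1, Bmpr1b, Acvr1, Tgfbr2, Smad3, Id1 and Id2, and Bmpr1a was the 1 gene with crypt RING1B and none in ESC (2.7%, against 7.33%). At Id2 this depended on the window, as WT crypt RING1B peaks lay 2075 bp (AhCre) and 1582 bp (Villin) before its start. All 17 RING1B peaks of Villin WT crypts and 10 of the 11 of AhCre WT crypts in the windows overlapped an ESC RING1B peak. This overlap was not computed for the peaks of all genes. By gene, 1 of the 18 with WT crypt RING1B had none in ESC, against 1605 of 3353 over all genes. Nodal, H2AK119ub1-marked in crypts, had neither RING1B nor PCGF6 in ESC.

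Of the 25 genes with ESC RING1B, 15 had PCGF6 in ESC (60%, against 63.3%). PCGF6 lay at 12 genes in both WT crypts and ESC (32.4%, against 15.8% of all genes). In WT crypts alone it lay at Acvr2a, Smad1, Smad5, Smad7, Id2 and Id3 (16.2%, against 24.1%). In ESC alone it lay at Bmp6 (42.8), Gdf7 (36.1), Tgfb1 (22.6), Nog (34.3), Grem1 (20.6) and Id1 (25.0), again 16.2%, against 6.89%. At Id1, Id2 and Tgfb1 the difference depended on the window. The ESC peak of Id2 (26.5) lay 2152 bp before its start, a WT crypt peak of 32.2 lay 1835 bp inside Tgfb1, and the nearest WT crypt peak of Id1 was 2080 bp away.

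CTCF and RAD21 were measured in Villin crypts. CTCF lay at 7 of the 37 genes in WT (18.9%, against 25.5% of all genes) and 6 in KO (against 23.2%), and RAD21 at 13 (35.1%, against 22.2%) and 6 (against 14%). The strongest CTCF site was 916 bp past the end of Id2, with CTCF scores of 328 in WT and 329 in KO and RAD21 scores of 262 and 222 nearby, the WT RAD21 peak ranking 10 of 20653. Tgfb3 (196 and 183), Tgfbr2 (134 and 145) and Nog (115 and 157) had CTCF with RAD21 in both genotypes, and Tgfb1 had CTCF (64.0 and 50.1) without RAD21. The weak CTCF peaks of Bmp2 (12.4) and Smad7 (12.7) were lost (2 of 7, against 12.0%), and none was gained (against 1.26%). RAD21 was lost at Bmp3, Acvr2a, Smad1, Smad3, Smad4, Smad6 and Id1 (7 of 13, against 41.1%), with WT scores of 10.6 to 29.3, and none was gained (against 1.62%). With a score of at least 20 required, Bmp3, Acvr2a and Smad3 lost it (3 of 8, against 30.5%). With windows of 5 kb, Acvr2a and Smad4 alone lost it (2 of 20, against 24.9% of all genes). With the gene start alone, in 27 genes, RAD21 lay at 6 in WT and 0 in KO. Tgfbr2 and Id2 were then among those lost. Their WT start peaks (30.3 and 18.2) overlapped PCGF6 peaks of AhCre WT crypts and no CTCF peak. The share of all genes was not computed for this setting. None of the 7 genes that lost RAD21 with both ends counted had CTCF in WT within 1 kb. However, the lost RAD21 peak of Bmp3 overlapped a WT CTCF peak (34.1) that began 1090 bp from the gene end. All but Id1 had PCGF6 in AhCre WT crypts, as did 81.2% of all genes with RAD21 and no CTCF.

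Of 59 other genes of the pathway, 19 had PCGF6 in AhCre WT crypts (32.2%, against 39.9% of all genes). There 8 of the 59 had RING1B (13.6%, against 7.74%) and 25 had H2AK119ub1 (42.4%, against 16%). By role, H2AK119ub1 lay at 7 of 19 ligands (36.8%), 7 of 15 antagonists, 5 of 12 receptors, 2 of 8 intracellular genes and 4 of 5 targets. The 14 listed ligands had 71.4%. In Villin WT crypts 4 of the 19 ligands had it (21.1%, against 10.4%). RING1B lay at 0 of them in AhCre WT and 1 in Villin WT crypts (5.26%, against 14.2%). Among the 59 genes, of those with a WT peak, 15 lost PCGF6, 3 lost RING1B and 1 lost H2AK119ub1 in AhCre KO crypts, against 64.4%, 44.7% and 12.8% of all genes with a peak. These were 78.9%, 37.5% and 4.0% of the pathway genes with a peak. In AhCre KO crypts 0, 1 and 6 genes gained them, against 0.152%, 0.782% and 4.26% of all genes without a WT peak. In the Villin line 2 of 13 lost RING1B (15.4%, against 53.7%) and 2 of 16 lost H2AK119ub1 (12.5%, against 29.3%). There 2 and 3 genes gained them, against 1.31% and 1.81%. None lost or gained either feature in both lines. The highest RING1B scores in AhCre WT crypts were those of Msx1, a homeobox target of BMP signalling (67.8 in WT and 56.6 in KO), Bambi, a decoy receptor (50.9 and 32.5), and Ski, a Smad corepressor (28.2 and 10.8). In Villin crypts these genes had 57.4 and 47.4, 32.4 and 21.0, and 39.5 and 11.4. Ski also had strong PCGF6 (306 in WT and 81.2 in KO), and Bambi had RING1B in crypts and none in ESC.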

How the data were processed

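Per the labels, each peak list came from 1 library of crosslinked chromatin, and WT input was named as the reference for peak calling. The submitters' processing notes list MACS2 2.1.1 and Bowtie (1.2.2, 1.1.2), with no role given, and 3 genome builds (mm10, dm6, hg38), of which mm10 was used here. The deposited score is the authors' −log10 p or q value of each peak. Other settings are not given in the sources used here, and read depth is unknown.

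BED starts were made 1-based. A peak present in WT counted as lost when KO had none in the gene's windows and none overlapping the WT peak by 1 bp; gains were the reverse. Gene strand came from the promoter table, for 27 of 37 genes. Genes, roles, motifs and the 59 other pathway genes were chosen with earlier results of these data known; any of the 37 could be named, and of the 59 the 3 with the highest RING1B in AhCre WT crypts. In the ESC descriptions the first line exchanges PCGF6 and RING1B; titles and antibody tags were used. Counts matched bedtools 2.31.1 in 16 of 16 lists, and 200 of 200 simulated losses were found. Python 3.11.15, numpy 2.4.6, pandas 2.3.3 and matplotlib 3.10.9 were used.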

Additional observations from a re-analysis of the deposited data

Results flagged for a closer look

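H2AK119ub1 at Id3 went opposite ways in the Cre lines, in a difference that was not tested. In AhCre crypts a WT peak of score 13.9 was lost in KO, and in Villin crypts a KO peak of score 10.3 had no WT counterpart. Both peaks lay within the gene.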

How the results depend on the processing

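The gene ends, the score minimum and the list lengths moved many of the counts of the 37 genes, and the cause was not tested. No paired analysis was possible because each group had 1 library. For these settings, shares of all genes were computed only where given here or above. The remaining counts describe the 37 genes alone and cannot be set against all genes. With a score of 20 or more, genes with a peak numbered 11 (PCGF6 AhCre WT), 0 (PCGF6 AhCre KO), 11 (PCGF6 ESC), 3, 2, 6 and 1 (RING1B AhCre WT, AhCre KO, Villin WT and Villin KO), 11, 12, 4 and 2 (H2AK119ub1 in the same order) and 8 (RAD21 WT). Losses were then 1 (RING1B AhCre), 0 (H2AK119ub1 AhCre), 0 (CTCF) and 3 (RAD21), and gains 0 (PCGF6), 0 (RING1B AhCre), 1 (H2AK119ub1 AhCre) and 0 (H2AK119ub1 Villin). The Villin losses kept similar counts but changed genes. RING1B was then lost at Bmp7, Bmp8b, Tgfb1, Tgfbr1 and Id4 (5 of 6 genes with such a WT peak). Of these, Bmp8b alone was lost with all listed peaks. H2AK119ub1 was lost at Bmp7 and Nog (2 of 4) in place of Tgfbr1 and Smad9. The share of all genes was computed for neither. With the gene start alone, in 27 genes, peaks numbered 3 (PCGF6 AhCre KO), 11 (PCGF6 ESC), 10 and 4 (RING1B Villin WT and KO), 9 (H2AK119ub1 Villin KO), 1 and 1 (CTCF) and 6 and 0 (RAD21), losses 7 (PCGF6) and 0 (CTCF), and gains 0 (PCGF6) and 1 (RING1B AhCre). With windows of 5 kb, CTCF lay at 25 and 23 genes (67.6% and 62.2%, against 47.0% and 45.5% of all genes) and RAD21 at 20 and 18 (54.1% and 48.6%, against 37.7% and 30.2%), losses were 5 (RING1B AhCre) and 2 (RAD21), and the PCGF6 gain became 0. With the gene body, CTCF lay at 26 and 24 genes (all genes 49.0% and 47.7%) and RAD21 at 20 and 17 (all genes 38.9% and 32.6%). With lists of equal length, losses were 3 (PCGF6), 1 (RING1B AhCre) and 1 (H2AK119ub1 Villin), and PCGF6 gains 3. Judged by the window alone, an alternative added after seeing the data, CTCF had 1 gain. Requiring 50% overlap moved none of the 14 counts of losses and gains by more than 1.5 times.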
